A study of Mus musculus with 6 samples.

Results

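The respiratory chain and ATP synthase genes were followed in bone marrow neutrophils of wild-type (WT) and progranulin knockout (PGRN KO) mice. They were taken by symbol as the protein-coding genes of NADH dehydrogenase (complex I) with the assembly factors that share its gene prefix, succinate dehydrogenase (complex II), the cytochrome bc1 complex (complex III), cytochrome c, cytochrome c oxidase (complex IV) and ATP synthase, together with every protein-coding gene of mitochondrial DNA. This gave 109 of 54532 genes, 96 coded in the nucleus and 13 in mitochondrial DNA. No measured value was used to choose them. A few symbols carry older names: Ndufa4 codes a complex IV subunit and was counted with complex IV, and Atp5b, Atp5h and the others of that prefix code ATP synthase subunits.

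Oxidative phosphorylation makes ATP on the inner mitochondrial membrane. Complexes I and II pass electrons from NADH and succinate to ubiquinone, complex III hands them on to the small soluble carrier cytochrome c, complex IV gives them to oxygen, and ATP synthase uses the proton gradient that complexes I, III and IV build. The subunits come from both genomes: mitochondrial DNA codes the membrane core of complexes I, III and IV and a few membrane subunits of ATP synthase, and the nucleus codes everything else. Neutrophils carry few mitochondria and draw most of their ATP from glycolysis. Cytochrome c also has a role outside the chain, since its release into the cytosol sets off the caspase cascade of apoptosis.

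The 6 libraries, 3 of each genotype and all labelled C57BL/6J, came from neutrophils left for 6 h with the living yeast Candida albicans. Neutrophils were drawn from bone marrow with anti-Ly-6G beads. Per the study's methods the PGRN KO mice were bought from the Jackson Laboratory and the WT mice from Chongqing Medical University, so genotype and source of the mice cannot be told apart. Every library used here was challenged, so the values describe challenged cells of either genotype and not a response to the fungus. The labels do not say that the cultures came from separate mice, so the p-values measure the spread between these cultures, which may be technical. In bulk RNA, fewer cells of a kind and less RNA per cell cannot be told apart.

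The libraries held 17087344 to 18821091 fragments, and Grn, the targeted gene, lay between 161 and 168 FPKM in WT and between 0.206 and 0.747 in PGRN KO. FPKM counts the fragments of a gene relative to its length and to the size of the library. Neutrophil markers summed to 53461 to 57527 FPKM in WT and 55324 to 63946 in PGRN KO, and 0 of the 10 were called higher and 2 lower. The 7 promyelocyte markers tested, genes of primary granules and their precursors, gave 6 called higher, with sums of 209 to 244 against 712 to 778 FPKM. Of 10 markers of dividing cells 7 were higher (166 to 172 against 202 to 220 FPKM), and of 8 B and plasma cell markers 5 were higher (513 to 534 against 2251 to 2547 FPKM). Erythroid markers (4 of 5 higher), basophil and mast cell markers (4 of 6) and eosinophil markers (3 of 3) also moved, but their sums were no more than 12.7 FPKM in any library, as were those of T and NK cell and platelet markers, each with 1 of 2 tested called higher. Of 8 monocyte and macrophage markers 1 was higher and 4 were lower, while Cd3e and Cd3g of T cells were at 0 in all 6 libraries. The part of these markers in the differences below was not tested.

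Genes of the respiratory chain were more often higher than lower in PGRN KO neutrophils, and the differences were small. Of the 103 members that reached a mean of 0.1 FPKM over the libraries, 27 were called higher, 1 was called lower and 75 were not called at an adjusted p under 0.05 (limma on log2(FPKM + 1), Benjamini-Hochberg over 14807 genes). Over all genes tested 7.94% were called higher and 9.95% lower, and over protein-coding genes 8.37% and 11.6%. The log2 fold change was above 0 in 87 members and below 0 in 16, with a median of 0.17, where the median of all genes tested was 0.003. In 53 members every PGRN KO library lay above every WT library, and in 1 every PGRN KO library lay below it. The same separation held in 18.1% of all genes tested for higher values and in 19.6% for lower values. The nuclear members accounted for nearly all of the calls, with 26 higher and 1 lower of 90 tested (28.9% higher) and a median of 0.19. Among the 80 nuclear members that averaged 1 FPKM or more, 26 (32.5%) were called higher, against 11.1% of all genes at that level. Of the 13 genes of mitochondrial DNA 1 was called higher, with a median of 0.05.

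The number of calls depends on how the libraries are scaled. Compared with plain totals of fragments, the scaling behind the deposited values sets PGRN KO lower against WT by 0.12 (log2). With plain totals 46 of the 90 nuclear members were called higher and 0 lower, against 14.5% and 6.31% of all genes tested, and the median of the nuclear members was 0.28 where that of all genes was 0.07. Of all calls, 44.4% were toward higher values as deposited and 69.7% with plain totals. The members are also shorter than most genes, with a median gene length of 1501 bases against 3215 over all genes tested. With a smooth trend on gene length removed from each library, 21 nuclear members were called higher and 1 lower. Over all genes tested 8.22% were then called higher and 10.0% lower. The median of the nuclear members was 0.14.

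**Figure D1:**
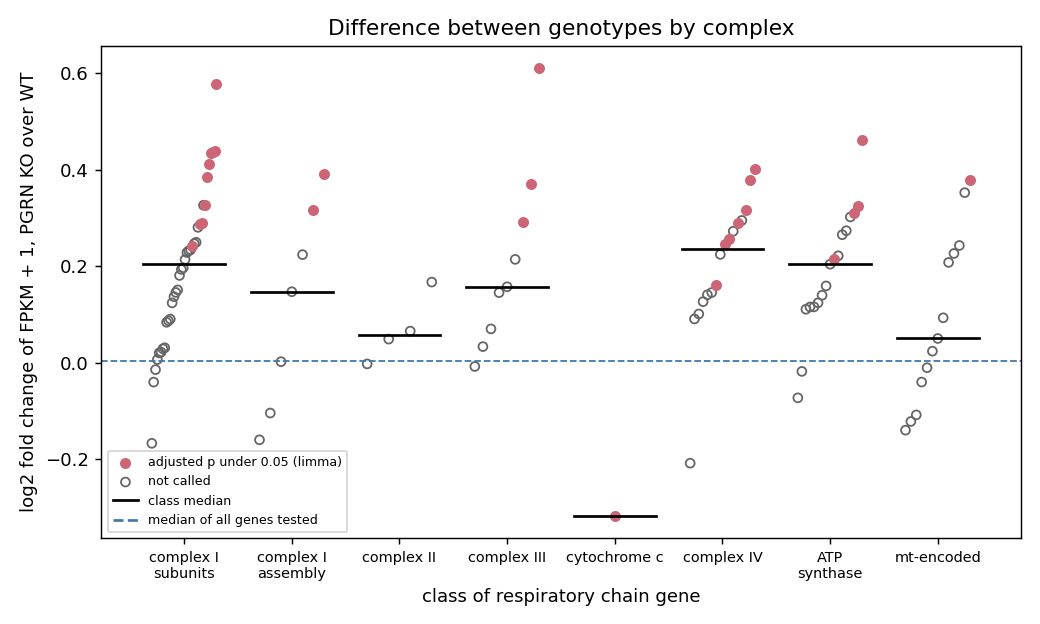
Each point is 1 gene, placed by class on the x axis and by its log2 fold change of FPKM + 1 (PGRN KO over WT) on the y axis, with filled points at an adjusted p under 0.05 (limma), black bars at class medians and the dashed line at the median of all genes tested. Complex I, complex III, complex IV and ATP synthase have their medians between 0.16 and 0.24, complex II and the mitochondrially encoded genes lie near 0.05, and Cycs alone is called lower at -0.32.

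Complex I, the entry point of electrons from NADH, had 10 of its 36 nuclear subunits called higher and none lower by limma, with a median log2 fold change of 0.21. At an unadjusted p under 0.05, 17 were higher and 0 lower, and voom on recovered fragments, which scales to plain totals, called 21 higher and 0 lower. Over all genes tested these criteria called more as well, 15.2% higher and 16.9% lower unadjusted, and 20.2% higher and 8.46% lower by voom. The subunit genes summed to 518, 510 and 450 FPKM in WT and reached 563, 601 and 569 in PGRN KO, so the groups did not overlap and the PGRN KO mean was 17.3% above the WT mean. The largest rise was that of Ndufa13 (ENSMUSG00000036199, chromosome 8, 69894180 to 69902558, minus strand, GRCm38), an accessory subunit also known as GRIM-19 that is needed for assembly of the complex and binds STAT3. Ndufa13 was at 14.1, 11.5 and 11.6 FPKM in WT cells and at 18.1, 20.7 and 17.9 in PGRN KO. All 3 PGRN KO libraries were above all 3 WT libraries, and the means were 12.4 ± 1.48 and 18.9 ± 1.55 (SD, n = 3 each). Its log2 fold change of 0.58 (standard error 0.094) had an adjusted p of 0.00894 from limma, and it was called in each of the 6 fits that left out 1 library.

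Ndufb3, a small subunit of the membrane arm, rose from 24.2, 22.9 and 20.7 FPKM in WT to 31.4, 33.0 and 28.5 in PGRN KO, again without overlap (log2 fold change 0.44, standard error 0.076, limma adjusted p = 0.0109). Ndufa5, an accessory subunit of the peripheral arm, was measured at 3.08, 2.85 and 2.72 against 4.45, 4.96 and 3.45 FPKM. It passed the threshold (log2 fold change 0.44, limma adjusted p = 0.0421) but only in 1 of the 6 fits without a library, and not with the length trend removed (adjusted p = 0.0606). Besides these, Ndufb11, Ndufv2, Ndufc2, Ndufs7, Ndufa6, Ndufb9 and Ndufa10 were called higher, with log2 fold changes from 0.24 to 0.43. Ndufv2 and Ndufs7 bind iron-sulfur clusters in the electron path, and the rest are accessory subunits. Ndufb9, singled out after its values were seen, had the smallest adjusted p of all members (0.00678, limma) with values of 13, 13.1 and 12.6 FPKM in WT against 16.1, 15.8 and 15.9 in PGRN KO.

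The other 26 complex I subunits were not called. Ndufa2, the nuclear subunit with the highest level, was at 61.1, 56.9 and 40.9 FPKM in WT against 63.4, 65.1 and 56.0 in PGRN KO, and the groups overlapped, with WT replicate 3 far below the other two (limma adjusted p = 0.347). Ndufs1, Ndufs3, Ndufs8 and Ndufv1, core subunits of the peripheral arm that takes up the electrons, had log2 fold changes of 0.08 to 0.25 with adjusted p of 0.173 to 0.621 from limma. Ndufs6 had the lowest log2 fold change of the nuclear subunits, -0.17 (limma adjusted p = 0.464), with 9.38, 8.61 and 6.70 against 8.55, 6.44 and 6.63 FPKM. Ndufa12 and Ndufb2 were at a mean of no more than 0.763 FPKM in either genotype, so their values rest on few fragments (31 in WT and 66 in PGRN KO for Ndufa12, 79 and 77 for Ndufb2).

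Of the 8 complex I assembly factors that share the Nduf prefix, 7 were tested and 2 were higher. Ndufaf7, a methyltransferase that acts during assembly, was at 3.83, 3.73 and 4.3 FPKM in WT against 5.61, 6.02 and 4.89 in PGRN KO (log2 fold change 0.39, limma adjusted p = 0.0233). Ndufaf3, which acts early in the assembly of the peripheral arm and had the highest level of the factors, was at 6.07, 5.71 and 5.63 against 7.13, 7.74 and 7.54 FPKM (log2 fold change 0.32, limma adjusted p = 0.0119). Neither gene overlapped between genotypes. Ndufaf1, Ndufaf2, Ndufaf5, Ndufaf6 and Ndufaf8 were not called, with log2 fold changes from -0.16 to 0.22. Ndufaf4 was below the minimum for testing, with 7 fragments over the WT and 10 over the PGRN KO libraries.

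Complex II, the only complex of the chain coded wholly in the nucleus and also an enzyme of the tricarboxylic acid cycle, had none of its 4 subunits called by limma, with a median log2 fold change of 0.06 (1 was higher at an unadjusted p under 0.05, and voom called 1). Sdhd, which anchors the enzyme in the membrane and had the highest level, was at 42.0, 39.3 and 38 FPKM in WT against 42.8, 45.4 and 46.1 in PGRN KO. The groups did not overlap, yet the log2 fold change of 0.17 missed the threshold (limma adjusted p = 0.0778). Sdha and Sdhb, the catalytic subunits with flavin and iron-sulfur clusters, and Sdhc, the other anchor, overlapped between genotypes, with log2 fold changes from -0.003 to 0.07. The subunits summed to 88.0, 84.4 and 81.8 against 86.4, 93.7 and 92.1 FPKM, which overlap. Whether complex II differed from the other complexes was not tested.

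Complex III had 3 of 9 nuclear genes called higher, Uqcrb, Uqcr10 and Uqcrh, which code small subunits without a redox centre. Uqcrb (ENSMUSG00000021520, chromosome 13, 66900617 to 66905378, minus strand), whose product is needed for a stable complex, had the largest log2 fold change of all members. It was at 13.4, 12.9 and 10.9 FPKM in WT cells and at 19.6, 21.9 and 17 in PGRN KO, with no overlap. The means were 12.4 ± 1.32 and 19.5 ± 2.43 (SD, n = 3 each), from 552 and 948 fragments, and the log2 fold change was 0.61 (standard error 0.11, limma adjusted p = 0.0117). Of the 100-base stretches of its transcripts, 8.89% also occur in transcripts of other genes, the pseudogenes Gm16089, Gm2962 and Gm5457, each of them at no more than 3.48 FPKM in any library.

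Uqcr10, another small subunit, rose from 39.4, 38.6 and 33.8 FPKM to 48.1, 47.3 and 49.8 (log2 fold change 0.37, limma adjusted p = 0.0114), and Uqcrh, the acidic hinge protein next to cytochrome c1, from 40.0, 42.3 and 43.6 to 46.3, 54.7 and 54.1 (0.29, limma adjusted p = 0.0372). Neither overlapped, but Uqcrh lost its call with the length trend removed (adjusted p = 0.0798) and was called in 1 of the 6 fits without a library. The electron-carrying subunits were not called. Uqcrfs1, the Rieske iron-sulfur protein and the most abundant nuclear transcript of the complex, was at 48.5, 41.7 and 46.8 against 49.1, 52.8 and 51.0 FPKM (log2 fold change 0.16, limma adjusted p = 0.15), and Cyc1, cytochrome c1, had a log2 fold change of 0.03. The core proteins Uqcrc1 and Uqcrc2 were at 0.21 and 0.07 on the same scale, and Uqcrq and Uqcr11 at 0.14 and -0.01.

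Cycs, the gene of cytochrome c (ENSMUSG00000063694, chromosome 6, 50562563 to 50566538, minus strand), was the only member called lower in PGRN KO. It was at 24.9, 23.9 and 22.4 FPKM in WT cells and at 18.7, 19.5 and 18.2 in PGRN KO. Every PGRN KO library was below every WT library, with means of 23.7 ± 1.29 and 18.8 ± 0.671 (SD, n = 3 each) from 4100 and 3562 fragments. The log2 fold change was -0.32 (standard error 0.055, limma adjusted p = 0.0111). With plain totals it was -0.20 and missed the threshold (adjusted p = 0.0506), and it was also not called without WT replicate 2 (adjusted p = 0.0525), while it lay between -0.36 and -0.28 over the 6 fits without a library. Set against Cyc1, its partner in complex III, the ratio of Cycs to Cyc1 in FPKM was 1.30, 1.13 and 1.16 for WT and 0.924, 0.929 and 0.923 for PGRN KO. This ratio does not depend on the scaling of a library, and its exact two-sided permutation p of 0.1 is the smallest that 3 against 3 allows (0.175 when adjusted over the 7 ratios compared). The pair was chosen after the values were seen, with Cycs already separated, so this p adds no support. Of the 100-base stretches of Cycs transcripts 22.6% also occur in Gm10053, a copy on chromosome 19 annotated as protein-coding, which was at 7.57, 7.96 and 6.58 FPKM in WT against 5.43, 3.08 and 4.29 in PGRN KO. Fragments from the shared stretches could have come from either gene.

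Complex IV had 7 of its 16 tested nuclear genes called higher, with a median log2 fold change of 0.24. They were Ndufa4, Cox6c, Cox5a, Cox7c, Cox7a2l, Cox6b1 and Cox6a1. Ndufa4 was at 13.1, 14.6 and 14.3 FPKM in WT against 17.2, 18.2 and 21.3 in PGRN KO (log2 fold change 0.40, limma adjusted p = 0.0225), Cox6c at 9.14, 8.32 and 9.08 against 10.2, 12.6 and 12.7 (0.38, limma adjusted p = 0.0303), and Cox5a, which sits on the matrix side, at 15.0, 13.9 and 12.9 against 17.7, 18.4 and 16.7 (0.32, limma adjusted p = 0.0222). In these 3 genes the genotypes did not overlap, but with a library left out Cox6c was called in 1 of 6 fits and Ndufa4 and Cox5a in 2 of 6. Cox7c rose by 0.29 on the log2 scale (limma adjusted p = 0.0293), but 16.2% of its 100-base stretches occur in transcripts of other genes, among them the pseudogene Gm12338 at 14.3 to 17.5 FPKM, and the call was lost with the length trend removed (adjusted p = 0.0546). Cox8a, the most abundant nuclear transcript of the whole set, was at 198, 183 and 153 FPKM in WT against 207, 192 and 169 in PGRN KO, and the groups overlapped (log2 fold change 0.09, limma adjusted p = 0.635). Cox4i1, the nuclear subunit that folds against the catalytic core, was at 107, 106 and 95.5 against 109, 115 and 113 FPKM (0.13, limma adjusted p = 0.176). Cox5b and Cox7b were not called either, at 0.14 and 0.10.

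Several complex IV subunits exist as pairs of paralogs of which one is typical of heart and muscle, lung or testis, and in each pair the neutrophils held more transcript of the widespread form. Cox4i1 was at 161.9 ± 32.0 times the level of Cox4i2, the lung form, in WT and 166.5 ± 86.6 times in PGRN KO (SD, n = 3 each). Cox6a1 was at 107, 106 and 110 FPKM in WT against 120, 122 and 120 in PGRN KO, which did not overlap (log2 fold change 0.16, limma adjusted p = 0.0245), while Cox6a2, the muscle form, had 10 fragments over the WT and 4 over the PGRN KO libraries. Cox6b1 was at 66.0, 60.6 and 58.9 against 72.2, 74.7 and 73.5 FPKM (log2 fold change 0.25, limma adjusted p = 0.0209), while Cox6b2, the testis form, was at no more than 1.14 FPKM in any library and was not called. Both Cox6a1 and Cox6b1 lost their calls with the length trend removed (adjusted p = 0.268 and 0.061).

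Of the Cox7a family, Cox7a2l had the highest level. It was at 79.5, 78.9 and 80.2 FPKM in WT cells and at 95.5, 99.9 and 90.4 in PGRN KO, without overlap (log2 fold change 0.26, limma adjusted p = 0.0127). Cox7a2, the liver form, was at 39.4, 41.3 and 39.0 against 42.0, 49.2 and 49.5 FPKM and was not called (0.22, limma adjusted p = 0.0762). Cox7a1, the heart and muscle form, was at 1.58 ± 0.281 and 2.13 ± 0.432 FPKM (SD, n = 3 each) and was not called (limma adjusted p = 0.191). The level of Cox7a2l was 51.3 ± 9.40 times that of Cox7a1 in WT and 45.9 ± 8.15 times in PGRN KO, with an exact permutation p of 0.5. Cox7b2, Cox8b and Cox8c, forms of testis, heart or muscle, were at 0 in all 6 libraries, and Ndufa4l2, the hypoxia-induced paralog of Ndufa4, had 3 fragments in WT and 7 in PGRN KO, so none of the 4 was tested.

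ATP synthase had 4 of 17 nuclear genes called higher and none lower by limma, with a median log2 fold change of 0.20 (11 higher and 0 lower at an unadjusted p under 0.05, and 13 and 0 by voom). Atp5mpl, a small protein of the membrane part, was at 17.5, 15.7 and 19.3 FPKM in WT against 23.0, 25.2 and 25.0 in PGRN KO (log2 fold change 0.46, standard error 0.081, limma adjusted p = 0.0115). Atp5h (ENSMUSG00000034566, chromosome 11, 115415689 to 115419962, minus strand), subunit d of the stalk that holds the catalytic head in place, was at 28.5, 28.8 and 27.1 against 35.6, 33.8 and 36.9 FPKM (0.32, standard error 0.05, limma adjusted p = 0.00768). Both genes separated the genotypes, and Atp5h was called in all 6 fits without a library. The pseudogene Gm10250 on chromosome 15 holds 11.5% of the 100-base stretches of Atp5h, and was at 19.7, 14.3 and 16.7 against 22.2, 26.6 and 28.3 FPKM. Atp5e, the epsilon subunit of the rotor, was the remaining gene called beside Atp5g2, at a log2 fold change of 0.22 (limma adjusted p = 0.0297), and was called in 1 of the 6 fits without a library.

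The main subunits of the catalytic head were not called. Atp5b, the beta subunit that holds the catalytic sites and the most abundant nuclear transcript of the enzyme, was at 68.2, 66.3 and 64.1 FPKM in WT against 64.6, 62.7 and 68.9 in PGRN KO, with groups that overlapped (log2 fold change -0.02, limma adjusted p = 0.837). Atp5a1, the alpha subunit beside it, and Atp5c1 and Atp5d, the gamma and delta subunits of the central stalk, had log2 fold changes of 0.14, 0.16 and 0.12 (limma adjusted p = 0.0715, 0.0926 and 0.214). The rotor ring of subunit c is coded by 3 paralogs with the same mature protein. Atp5g2 was at 22.9, 20.0 and 20.8 FPKM in WT against 26.2, 29.1 and 24.5 in PGRN KO (0.31, limma adjusted p = 0.0386). Atp5g3 was at 21.6, 20.9 and 19.7 against 22.3, 23.4 and 22.3 (0.12, limma adjusted p = 0.149), and Atp5g1 at 1.56, 1.55 and 1.5 against 1.57, 1.42 and 1.24 (-0.07, limma adjusted p = 0.549). Of the 3 paralogs Atp5g2 and Atp5g3 were thus at similar levels, with Atp5g1 far below. The call of Atp5g2 is uncertain, since 34.7% of its 100-base stretches occur in pseudogenes, it was called in 1 of the 6 fits without a library, and it missed the threshold with the length trend removed (adjusted p = 0.0529). The stalk and membrane subunits Atp5f1, Atp5j, Atp5j2, Atp5k, Atp5l, Atp5o and the coupling factor Atp5s were not called, at 0.11 to 0.30. A further Ensembl entry named Atp5o was at 0 in all 6 libraries.

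**Figure D2:**
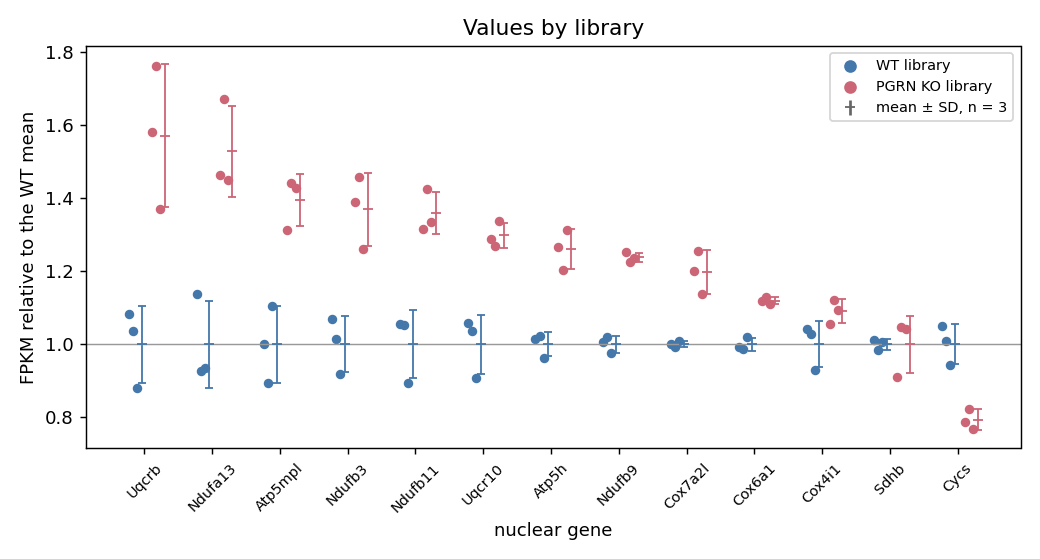
FPKM of 13 nuclear genes in each library, divided by the mean of the WT libraries of that gene, with the mean and SD of each genotype (n = 3) beside the points. The 3 PGRN KO points lie above all WT points from Uqcrb to Cox4i1, overlap them in Sdhb and lie below them in Cycs.

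The 13 protein genes of mitochondrial DNA are transcribed as long precursors, most of them from the heavy strand promoter and mt-Nd6 alone from the light strand, and are cut apart at the transfer RNAs between them. In these libraries their levels ranged over several orders of magnitude. mt-Co1, subunit I of complex IV and its catalytic core (chromosome MT, 5328 to 6872), was the highest of all members at 1240, 1210 and 1325 FPKM in WT against 1359, 1423 and 1704 in PGRN KO. The PGRN KO libraries all lay above the WT libraries, but the log2 fold change of 0.24 missed the threshold (standard error 0.09, limma adjusted p = 0.115). mt-Cytb, the cytochrome b of complex III, followed at 215, 217 and 231 against 195, 206 and 246 FPKM (-0.04, limma adjusted p = 0.795). Of the complex I core subunits, mt-Nd1 was at 138, 130 and 144 against 133, 146 and 159 FPKM (0.09), mt-Nd4 at 86.7, 82.3 and 97.5 against 85.3, 89.2 and 102 (0.05), mt-Nd5 at 62.0, 59.5 and 61.6 against 55.9, 59.2 and 67.1 (-0.01), and mt-Nd2 at 47.8, 47.6 and 49.4 against 42.2, 40.2 and 49.3 (-0.14). These 5 genes overlapped between genotypes and none was called, with adjusted p of 0.266 to 0.938 from limma.

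mt-Nd6 (ENSMUSG00000064368, chromosome MT, 13552 to 14070, minus strand), a core subunit of the membrane arm of complex I, was the only mitochondrially encoded gene called. It was at 62.3, 62.5 and 64.4 FPKM in WT cells and at 78.5, 77.9 and 91.1 in PGRN KO, with no overlap. The means were 63.0 ± 1.14 and 82.5 ± 7.44 (SD, n = 3 each), and the log2 fold change was 0.38 (standard error 0.066, limma adjusted p = 0.0114). Without WT replicate 2 the adjusted p was 0.0542, and the log2 fold change lay between 0.31 and 0.42 over the 6 fits without a library. Ratios within a library do not depend on its scaling. The ratio of mt-Nd6 to mt-Cytb was 0.289, 0.288 and 0.279 in WT and 0.402, 0.378 and 0.370 in PGRN KO, and that of mt-Nd6 to its neighbour mt-Nd5 was 1.00, 1.05 and 1.05 against 1.40, 1.32 and 1.36. Neither ratio overlapped, each with an exact two-sided permutation p of 0.1, the smallest possible (0.175 when adjusted over the 7 ratios compared). Both pairs were chosen after the values were seen. The stretch of mt-Nd6 overlaps the end of mt-Nd5 (11742 to 13565) on the other strand, but only from 13552 to 13565, a small part of mt-Nd6. The sources used here do not say whether counting used strand, so light-strand and heavy-strand RNA over mt-Nd6 cannot be told apart.

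The ratio of mt-Co1 to mt-Cytb, genes of the same strand, also separated the genotypes. It was 5.76, 5.57 and 5.74 in WT and 6.95, 6.90 and 6.92 in PGRN KO. Its exact two-sided permutation p of 0.1 was the smallest possible (0.175 when adjusted over the 7 ratios compared). This pair was chosen after the values were seen. With plain totals mt-Co1 and mt-Co2 were called beside mt-Nd6 (adjusted p = 0.0306 and 0.03). Of mt-Co1, 30.8% of the 100-base stretches also occur in nuclear copies of mitochondrial DNA, the pseudogenes Gm29216 on chromosome 1 and Gm13340 on chromosome 2.

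The other mitochondrially encoded genes were low, and most of their sequence is shared. The annotated nuclear copies, nearly all on chromosome 1, hold 99.9% of the 100-base stretches of mt-Co3, 99.5% of mt-Co2 and of mt-Atp6, 98.5% of mt-Nd4l, 97.6% of mt-Nd3 and 60.8% of mt-Nd4. A fragment that maps to more than 1 place is often left out of counting. Levels of these genes are therefore not comparable with those of mt-Cytb, mt-Nd1, mt-Nd5 and mt-Nd6, which share none with annotated transcripts. Copies without an annotated transcript were not searched. mt-Co2 was at 18.2, 15.3 and 18.3 FPKM in WT against 19.2, 20.9 and 20.0 in PGRN KO (log2 fold change 0.21, limma adjusted p = 0.114). mt-Co3 was at 4.88, 5.43 and 8.42 against 6.57, 7.80 and 10.1 (0.35, limma adjusted p = 0.302), and mt-Atp6, subunit a of ATP synthase, at 5.62, 4.58 and 4.89 against 6.99, 5.17 and 6.05 (0.23, limma adjusted p = 0.219). The last 3 were near the limit of detection: mt-Nd3 had 38 fragments in WT and 37 in PGRN KO, mt-Nd4l had 7 and 8, and mt-Atp8 had 3 and 2. None of the stretches of mt-Atp8 was found in annotated transcripts of other genes, but unannotated copies of it would have been missed. With so few counted fragments no difference in these genes could be seen.

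**Figure D3:**
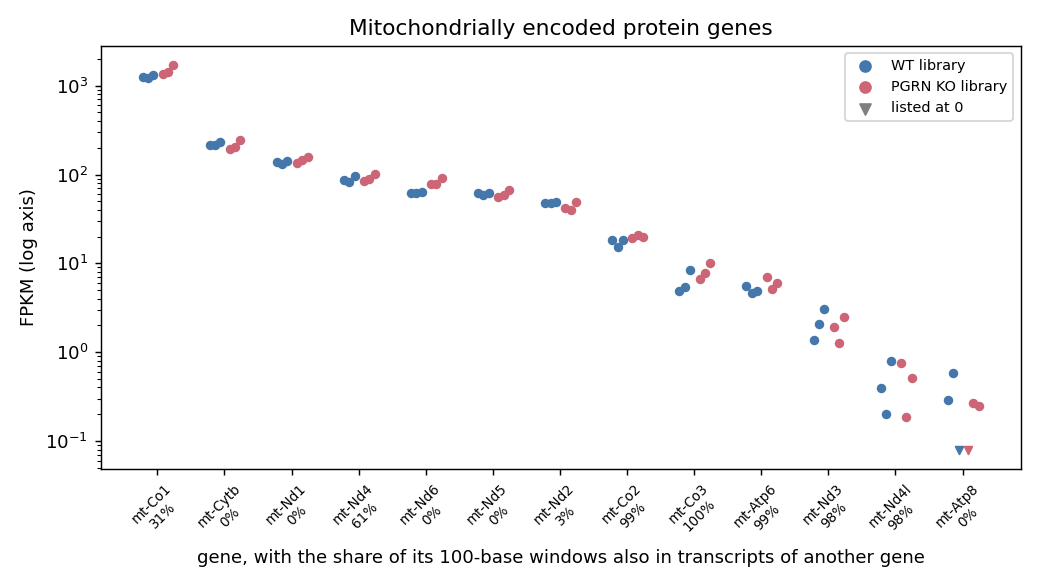
FPKM on a log axis of the 13 mitochondrially encoded protein genes in each of the 6 libraries, ordered by mean level, with the share of 100-base windows that also occur in transcripts of another gene written under each name. The PGRN KO points lie above the WT points in mt-Co1, mt-Nd6 and mt-Co2, and triangles mark the libraries in which mt-Atp8 was listed at 0.

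Summed over members, the FPKM counted for the 2 genomes were similar. The mitochondrial sum may lack fragments of sequence shared with nuclear copies, so the sums do not compare the output of the genomes. The mitochondrially encoded genes came to 1883, 1837 and 2007 FPKM in WT against 1985, 2077 and 2458 in PGRN KO, which overlap, with a PGRN KO mean 13.9% above that of WT. PGRN KO replicate 6 was the highest, and mt-Co1 made up most of each sum. The nuclear members came to 2004, 1958 and 1827 against 2178, 2272 and 2170 FPKM, which do not overlap, with a mean 14.4% higher. The mitochondrial sum divided by the nuclear sum was 0.940, 0.938 and 1.10 in WT and 0.911, 0.914 and 1.13 in PGRN KO. This ratio of counted values varied more within a genotype than between the genotypes. As shares of all fragments, the mitochondrially encoded genes took 0.254%, 0.247% and 0.270% in WT and 0.290%, 0.308% and 0.361% in PGRN KO, and the nuclear members 0.307%, 0.301% and 0.284% against 0.354%, 0.377% and 0.362%. These shares are not on the authors' scale, and on them both genomes separated the genotypes.

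The shift of the nuclear members was seen in each library. Relative to the mean of the 6 libraries, the median member lay at -0.07, -0.06 and -0.14 on the log2 scale in WT and at 0.06, 0.11 and 0.07 in PGRN KO. WT replicate 3 was the lowest and PGRN KO replicate 5 the highest. Counts of calls fell when a library was left out, for the members and for all genes. Without PGRN KO replicate 5, 7 nuclear members were called higher, and without WT replicate 2 it was 10. Without WT replicate 1 or 3 it was 12. Across these fits 7.78% to 13.3% of the nuclear members tested were called higher, against 3.65% to 4.54% of all genes tested. With all 6 libraries these shares were 28.9% and 7.94%. The median of the nuclear members stayed between 0.17 and 0.20 with any library left out. The 6 members called in every fit without a library were Uqcrb, Ndufa13, Ndufb3, Uqcr10, Atp5h and Ndufb9. Another 8 called members (Atp5e, Atp5g2, Cox6c, Cox7c, Ndufa10, Ndufa5, Ndufv2 and Uqcrh) were called in only 1 of these fits, and 6 (Cox5a, Cox6b1, Ndufa4, Ndufaf7, Ndufc2 and Ndufs7) in 2.

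**Figure D4:**
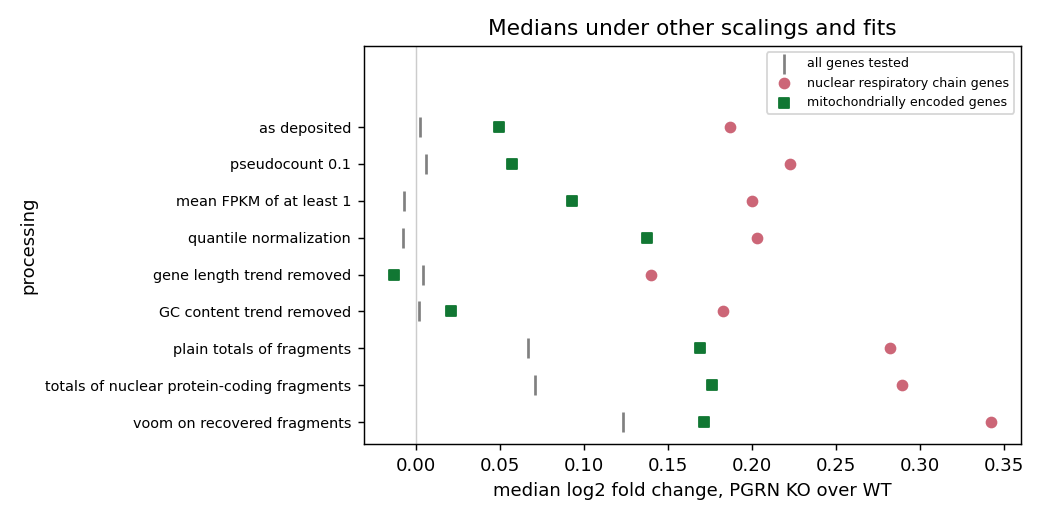
Median log2 fold change (PGRN KO over WT, x axis) of the nuclear members, the mitochondrially encoded genes and all genes tested under 9 ways of processing (y axis). The nuclear median is above the median of all genes in each of them, between 0.14 and 0.34, while the mitochondrially encoded median moves from -0.01 to 0.18.

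Since many nuclear members moved in the same direction, their promoters were compared by their letters. RefSeq promoters (GRCm38.p6) were found for 77 of the 96 nuclear members, 22 of them called higher. The 250 bases before the start were searched on both strands for motifs of factors known to act on respiratory genes: NRF1 (GCGC and TGCGC with any 1 base between them), ETS factors such as GABPA (CCGGAAG), SP1 (GGGCGG), CREB (TGACGTCA), YY1 (AAGATG followed directly by GCGG) and the TATA box (TATAAA). Capitals mark the matches in 3 promoters, those of Ndufa13 and Atp5h, which were called in every fit without a library, and of Cycs, which was lower. The windows are chr8:69902021-69902270, chr11:115419920-115420169 and chr6:50566570-50566819, all on the minus strand. In Ndufa13 the capitals are SP1 letters at 241, 80 and 60 bases before the start, in Atp5h an NRF1 match at 141 and an ETS match at 38 bases, and in Cycs a CREB match at 169 bases. The promoters of Ndufb3 and Uqcr10, also called in every such fit, hold none of the 6 motifs in this window.
Ndufa13: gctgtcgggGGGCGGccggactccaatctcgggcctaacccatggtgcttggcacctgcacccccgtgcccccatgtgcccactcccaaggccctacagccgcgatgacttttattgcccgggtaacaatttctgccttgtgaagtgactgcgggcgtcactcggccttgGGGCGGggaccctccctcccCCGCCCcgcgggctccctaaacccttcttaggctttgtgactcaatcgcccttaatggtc
Atp5h: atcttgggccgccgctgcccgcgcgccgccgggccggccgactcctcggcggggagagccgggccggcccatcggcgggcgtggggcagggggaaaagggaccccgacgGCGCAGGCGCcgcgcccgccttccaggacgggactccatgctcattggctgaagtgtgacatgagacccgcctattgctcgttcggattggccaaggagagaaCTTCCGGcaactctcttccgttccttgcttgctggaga
Cycs: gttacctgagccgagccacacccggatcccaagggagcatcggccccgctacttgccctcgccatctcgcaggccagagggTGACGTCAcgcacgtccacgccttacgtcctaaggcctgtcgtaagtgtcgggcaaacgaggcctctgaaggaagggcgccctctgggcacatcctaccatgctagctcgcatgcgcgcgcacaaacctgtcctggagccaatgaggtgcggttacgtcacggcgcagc

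The NRF1 letters were found in 14 of the 77 member promoters (18.2%) against 4.23% of the promoters of 27025 genes, the ETS letters in 14 (18.2%) against 7.83%, and the CREB letters in 5 (6.49%) against 1.77%. SP1 letters stood in 31 (40.3%) against 35.4%, YY1 letters in 1 (1.30%) against 0.359%, and the TATA letters in 6 (7.79%) against 14.3%. The 27025 genes are all those with a RefSeq promoter, expressed in these cells or not, so they are not matched to the members. Between members called higher and the other members, NRF1 letters were in 4 of 22 (18.2%) and in 10 of 55 (18.2%), SP1 letters in 9 (40.9%) and 22 (40.0%), and ETS letters in 5 (22.7%) and 9 (16.4%). A match in letters is not a bound site, and the absence of a match says nothing about a factor. The transcripts of these regulators were measured too. Nrf1 was at 5.25 ± 0.115 and 5.04 ± 0.185 FPKM and Gabpa at 7.38 ± 0.315 and 7.02 ± 0.889 (SD, n = 3 each), neither called, and the coactivator Ppargc1a was at 0 in all 6 libraries. Of 13 tested regulators of mitochondrial biogenesis 1 was called lower (7.69%, against 9.95% of all genes tested) and none higher. This was Sirt1, a NAD-dependent deacetylase (log2 fold change -0.31, limma adjusted p = 0.0173), which missed the threshold with plain totals (-0.21, adjusted p = 0.0548). The median of the list was -0.05.

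Genes that act beside the chain were read from lists by function, to be set against the 7.94% called higher and 9.95% called lower of all genes tested. Of 38 tested assembly factors of the chain outside the Nduf family none was called by limma, with a median of 0.06 (7 were higher and 0 lower at an unadjusted p under 0.05, and voom called 6 and 0, where all genes had 15.2% and 20.2% higher). Of 28 genes that copy and transcribe mitochondrial DNA or process its RNA 2 were higher (7.14%) and 1 lower (3.57%), with a median of 0.03. These shares are no larger than those over all genes tested. Hsd17b10 and Trmt10c, subunits of the enzyme that trims mitochondrial transfer RNAs, rose by 0.26 and 0.23 on the log2 scale (limma adjusted p = 0.0269 and 0.0441), and Supv3l1, a helicase of mitochondrial RNA decay, was lower at -0.30 (limma adjusted p = 0.0224) but not with plain totals (adjusted p = 0.0601). Of 77 mitochondrial ribosomal proteins 9 were higher (11.7%) and 1 lower (1.30%), with a median of 0.12. The share called higher was near the 11.1% of all genes averaging 1 FPKM or more. Mrpl58, a peptidyl-tRNA hydrolase of the mitochondrial ribosome, rose from 1.19 ± 0.105 to 1.95 ± 0.176 FPKM (SD, n = 3 each, limma adjusted p = 0.0119), Mrpl18 rose by 0.40 on the log2 scale (limma adjusted p = 0.0445), and Mrpl52 fell from 33.3 ± 0.45 to 25.6 ± 2.14 FPKM (limma adjusted p = 0.0105). The list of the tricarboxylic acid cycle, which supplies NADH and succinate, had 5 of 21 genes higher (23.8%) and none lower (median 0.14). Its largest rise was that of Mdh1, the cytosolic and not the mitochondrial malate dehydrogenase. Mdh1 went from 10.1 ± 0.281 to 15.4 ± 1.10 FPKM (log2 fold change 0.57, limma adjusted p = 0.00225). Idh2, the NADP-linked isocitrate dehydrogenase of mitochondria, followed at 0.54 (limma adjusted p = 0.0129). Among 11 carriers and uncoupling proteins, 1 was called higher (9.09%) and none lower. This was Atpif1, the inhibitor that stops ATP synthase from running backwards, from 6.92 ± 0.575 to 9.72 ± 1.05 FPKM (log2 fold change 0.43, limma adjusted p = 0.0203). Slc25a5, the main ADP/ATP carrier in these cells, was at 56.2 ± 3.22 and 64.5 ± 2.50 FPKM and missed the threshold (limma adjusted p = 0.054).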

How the data were processed

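RNA of neutrophils after 6 h with live Candida albicans was sequenced in 3 WT and 3 PGRN KO libraries, from poly(A)-selected RNA. The authors deposited FPKM values for 54532 genes. The submitters' processing notes name CASAVA, HISAT2 2.0.5, featureCounts 1.5.0-p3, DESeq2 1.20.0 and mm10 (GRCm38), and the study's methods name HTSeq as the counter, so which counter made the values is not settled. The sample labels and the study also differ on the ratio of fungus to cells. Of the 109 members, 103 have the same start and end in GENCODE M21, and positions are on GRCm38. Values above 0 times gene length gave whole fragments within 0.05, which returned depths of 17087344 to 18821091 fragments. The authors' library sizes stand in the ratio of median-of-ratios size factors.

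From these values log2(FPKM + 1) was computed, and the 14807 genes averaging 0.1 FPKM or more were fitted with limma 3.58.1 (lmFit, eBayes with trend) in R 4.3.3, two-sided, with Benjamini-Hochberg adjustment and a threshold of 0.05. Fold changes on this scale understate those of low genes. Ratios within a library were compared by exact permutation tests, 7 in all, on pairs chosen after the values were seen. Tables and figures were made in Python 3.11.15. The share of each gene's 100-base windows found in transcripts of other genes was taken from GENCODE M21, and promoters from RefSeq (GRCm38.p6).

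Named with values were all mitochondrially encoded genes, in each class the nuclear gene with the highest mean and the 3 with the largest rise and 2 with the largest fall among called genes of at least 1 FPKM, a list of paralogs, Grn, and the leading called genes of the other lists. Other members are named to account for the set, except that 1 is not reported here by name. The members and lists were chosen with earlier results of these data known. Alternatives were 2 pseudocounts, 2 filters, 4 scalings, removal of trends on gene length (lowess span 0.3) and GC content, voom on recovered fragments, a fit of protein-coding genes alone, eBayes with robust estimation or without its trend, and each library left out in turn.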

Additional observations from a re-analysis of the deposited data

How the results depend on the processing

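With plain totals of fragments 49 members were called, 46 of them nuclear and 3 mitochondrially encoded, with medians of 0.28 and 0.17. With totals of nuclear protein-coding fragments these were 49, 46 and 3, with medians of 0.29 and 0.18, and the log2 difference of the mitochondrially encoded sum was 0.31 against 0.19 as deposited. Voom on recovered fragments called 59, 54 nuclear and 5 mitochondrially encoded, with medians of 0.34 and 0.17, and called 4236 genes in all against 2648 (1322 to 2161 with a library left out). Of all calls, 44.4% were toward higher values as deposited, 69.7% with plain totals, 71.1% with nuclear totals and 70.4% by voom. Removal of the length trend gave a nuclear median of 0.14, and removal of the GC trend 2 mitochondrially encoded calls. With each library left out in turn, 9 to 27 members were called, 8 to 26 of them nuclear and 0 to 2 mitochondrially encoded, the fewest without PGRN KO replicate 5 or, for the latter, without WT replicate 2. Without PGRN KO replicate 6, mt-Nd2 was called lower beside mt-Nd6 higher. The nuclear median lay between 0.17 and 0.20 and the mitochondrially encoded one between 0.00021 and 0.13. The causes were not tested. For the named genes, 567 of 611 values under other settings kept their direction and side of the threshold, 28 gained and 16 lost a call, and with libraries left out 217 of 264 did so, 2 gained and 45 lost a call, and none reversed. Median-of-ratios scaling is among the other settings and repeats the deposited scaling, so its values agree by construction. The counts of fragments limit mt-Nd3, mt-Nd4l, mt-Atp8, Cox6a2, Ndufaf4 and Ndufa4l2. No paired analysis was possible because the genotypes share no replicate numbers.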

Other observations

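Other abundant housekeeping machinery was measured in the same fit. Of 82 tested cytosolic ribosomal proteins 51 were called higher (62.2%) and 1 lower (1.22%) in PGRN KO neutrophils, with a median log2 fold change of 0.30. Over all genes tested 7.94% were called higher and 9.95% lower. Rpl36a rose from 19.4 ± 1.46 to 37.2 ± 3.16 FPKM (SD, n = 3 each, limma adjusted p = 0.00102) and Rps12 from 57.2 ± 5.41 to 107.8 ± 13.3 FPKM (limma adjusted p = 0.00268), while Rpl7l1, a ribosome biogenesis factor named for its likeness to a ribosomal protein, fell from 15.9 ± 0.0932 to 13.3 ± 0.513 FPKM (limma adjusted p = 0.0161), a call lost with plain totals (adjusted p = 0.0935). Of 46 proteasome genes 5 were higher (10.9%) and 1 lower (2.17%), with a median of 0.03. The share called higher was near the 11.1% of all genes averaging 1 FPKM or more. Psmb9, a subunit of the immunoproteasome, and Psmc3, an ATPase of the regulatory particle, rose by 0.33 and 0.26 on the log2 scale (limma adjusted p = 0.0146 and 0.0182), and Psmb7, a catalytic subunit, was lower at -0.20 (limma adjusted p = 0.0317) but not with plain totals (adjusted p = 0.23). Of 16 quinone reductases and other enzymes that feed ubiquinone beside complexes I and II none was called by limma (4 higher and 0 lower at an unadjusted p under 0.05, and 3 and 0 by voom, where all genes tested had 15.2% and 20.2% higher), with a median of 0.07.

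Glycolysis moved in both directions, with 4 of 24 genes higher (16.7%) and 7 lower (29.2%) and a median of -0.10. Pfkl, the liver-type phosphofructokinase that holds a committed step of the pathway, fell from 159.2 ± 7.82 to 115.8 ± 8.47 FPKM (log2 fold change -0.46, limma adjusted p = 0.0056), and Pfkfb3, which makes its activator fructose 2,6-bisphosphate, fell by 0.41 on the log2 scale (limma adjusted p = 0.0094). Pgam1, Slc2a1, Hk1, Hk2 and Pkm were also called lower. The genes called higher were Aldoc, from 2.51 ± 0.408 to 5.07 ± 0.307 FPKM (limma adjusted p = 0.00314), Ldhb, from 1.53 ± 0.27 to 2.28 ± 0.153 FPKM (limma adjusted p = 0.0352), Pfkm and Gpi1. With plain totals 5 genes of the list were higher and 5 lower, with a median of 0.02, so the sign of the median depends on the scaling.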
